A study of Arabidopsis thaliana with 6 samples.

Results

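The 32 genes described here are SMALL AUXIN UP RNA (SAUR) genes of *Arabidopsis thaliana* that lie in 6 tandem clusters, chosen by locus identifier from the 33602 loci of the deposited tables. The groups were wild-type seedlings of accession Col and bbx4-1 seedlings, labelled as the same ecotype and carrying an allele of BBX4, which encodes a B-box protein. Both were kept for 4 days at 22 °C under constant red light, and RNA came from seedlings as a bulk sample. The 3 biological replicates of a genotype were combined by the authors, so that each locus has 1 FPKM value per genotype (fragments per kilobase of transcript, scaled to the number of mapped fragments). The differences below therefore have no replicate check, no test and no p-value, and the intervals printed cover counting error only. In bulk seedlings, a difference in the number of SAUR-expressing cells and a difference in transcript per cell cannot be told apart.

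SAUR genes encode short proteins found across land plants, and many of their transcripts are unstable and accumulate within minutes of auxin treatment. Several SAUR proteins inhibit type 2C protein phosphatases of clade D, which otherwise dephosphorylate and inactivate the plasma membrane proton ATPase. The pump then acidifies the cell wall, and the cell expands. In seedlings, auxin, brassinosteroids and the phytochrome-interacting factors (PIFs) act on SAUR promoters. Light raises some SAUR transcripts in cotyledons and lowers some in the hypocotyl.

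BBX4 went against the label, at 88.97 FPKM in the WT column and 1095.7 in the column headed BBX4 (12.3-fold higher), so the latter is called the column labelled bbx4-1 throughout and no direction is read as an effect of losing BBX4. The smallest nonzero values of transfer RNA genes put the depth at about 48100000 fragments for WT and 49800000 for the column labelled bbx4-1. RBCS1A of photosynthetic tissue, EXPA7 of root hairs and PDF1 of the shoot epidermis were all present in both columns, at 17575, 5.09 and 94.82 FPKM in WT. Among the 18931 loci whose FPKM averaged 1 or more across the columns, the median log2 difference was 0.028 and its SD across loci was 0.175. A log2 difference is log2(FPKM + 1) in the column labelled bbx4-1 minus log2(FPKM + 1) in WT, and it understates the change of genes near 1 FPKM.

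The 6 clusters differed in size and layout in the TAIR10.1 annotation. SAUR19 to SAUR24 (6 genes) span 21.5 kb of chromosome 5, positions 5962773 to 5984308. SAUR61 to SAUR68 (8 genes) span 21.9 kb of chromosome 1, positions 10301377 to 10323239. SAUR1 to SAUR5 with SAUR49 and SAUR50 (7 genes) span 22.4 kb of chromosome 4, positions 16577180 to 16599568. SAUR13 to SAUR16 (4 genes) lie farther along chromosome 4, positions 18121526 to 18131284. SAUR6, SAUR7 and SAUR12 (3 genes) lie on chromosome 2, positions 9083906 to 9090052, and SAUR26 to SAUR29 (4 genes) on chromosome 3, positions 976715 to 983768. Of the 32 genes, 17 are on the forward strand and 15 on the reverse strand, and both strands occur in every cluster. All 32 coding sequences lie in a single exon, from 261 bp in SAUR7 to 561 bp in SAUR65. The annotation gives the symbol SAUR68 to AT1G29510 and as a synonym to AT1G29490. Here AT1G29490 is called SAUR68 and AT1G29510 is called SAUR67.

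How alike the copies are decides how far single values can be read. The 6 coding sequences of SAUR19 to SAUR24 were 87.7 to 95.2% identical in pairwise global alignment (median 91.2% over 15 pairs), the closest pair being SAUR19 and SAUR24. The 150 bases below, from the later part of each coding sequence, show this cluster because its members gave the widest spread of differences. They are taken from the TAIR10.1 genome 5′ to 3′ along each gene, and capitals mark a base that is not the most common one among the 6 copies at that place (in a tie, the alphabetically first counts as most common).
SAUR19 (chr5:5963036-5963185, reverse strand): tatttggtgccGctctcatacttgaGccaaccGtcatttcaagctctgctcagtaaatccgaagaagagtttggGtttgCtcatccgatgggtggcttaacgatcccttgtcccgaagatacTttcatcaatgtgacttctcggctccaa
SAUR20 (chr5:5966311-5966460, reverse strand): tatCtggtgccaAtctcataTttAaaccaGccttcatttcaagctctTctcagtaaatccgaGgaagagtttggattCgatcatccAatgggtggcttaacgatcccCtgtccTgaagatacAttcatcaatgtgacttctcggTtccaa
SAUR21 (chr5:5968641-5968790, forward strand): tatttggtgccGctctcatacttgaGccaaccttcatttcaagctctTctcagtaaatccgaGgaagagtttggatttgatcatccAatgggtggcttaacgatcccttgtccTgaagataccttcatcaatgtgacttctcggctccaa
SAUR22 (chr5:5974694-5974843, reverse strand): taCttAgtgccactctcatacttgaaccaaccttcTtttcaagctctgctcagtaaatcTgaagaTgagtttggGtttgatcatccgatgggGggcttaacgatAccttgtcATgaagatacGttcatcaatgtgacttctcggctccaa
SAUR23 (chr5:5976150-5976299, forward strand): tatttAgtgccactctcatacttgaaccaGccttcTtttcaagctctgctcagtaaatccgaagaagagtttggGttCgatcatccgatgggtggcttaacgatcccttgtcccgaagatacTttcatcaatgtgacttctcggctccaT
SAUR24 (chr5:5983960-5984109, forward strand): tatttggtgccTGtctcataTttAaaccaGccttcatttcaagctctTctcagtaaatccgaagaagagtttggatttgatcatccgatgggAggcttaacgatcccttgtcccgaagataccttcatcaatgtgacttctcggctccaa
SAUR20 carried 13 such bases, SAUR22 11, SAUR23 and SAUR24 7 each, and SAUR19 and SAUR21 6 each, spread along the stretch.

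Exact repeats were few. Every window of 100 bases in the annotated transcripts of 29 of the 32 genes had no second copy in the genome, SAUR19 to SAUR24 included. The 3 exceptions were SAUR62, SAUR63 and SAUR67, with 91.4, 81.1 and 78.4% of such windows found once. SAUR63 and SAUR67 shared windows with each other and with AT1G29435, which overlaps SAUR63 on the opposite strand, and SAUR62 with SAUR75 (AT5G27780), which lies outside the clusters. With 50-base windows, 11 genes held repeats, and SAUR19 kept 81.5% of its windows unique, SAUR67 66.1%. Identity within the other clusters was lower, with a median of 82.0% for SAUR26 to SAUR29, 63.1% for SAUR61 to SAUR68, 58.2% for SAUR13 to SAUR16, 54.0% for SAUR1 to SAUR5 with SAUR49 and SAUR50, and 41.9% for SAUR6, SAUR7 and SAUR12. Between clusters the median was 46.7% over 417 pairs, with 1 pair, SAUR16 and SAUR12, at 85.5%. The read length and the treatment of reads with several matches are not stated in the sources used here.

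**Figure D1:**
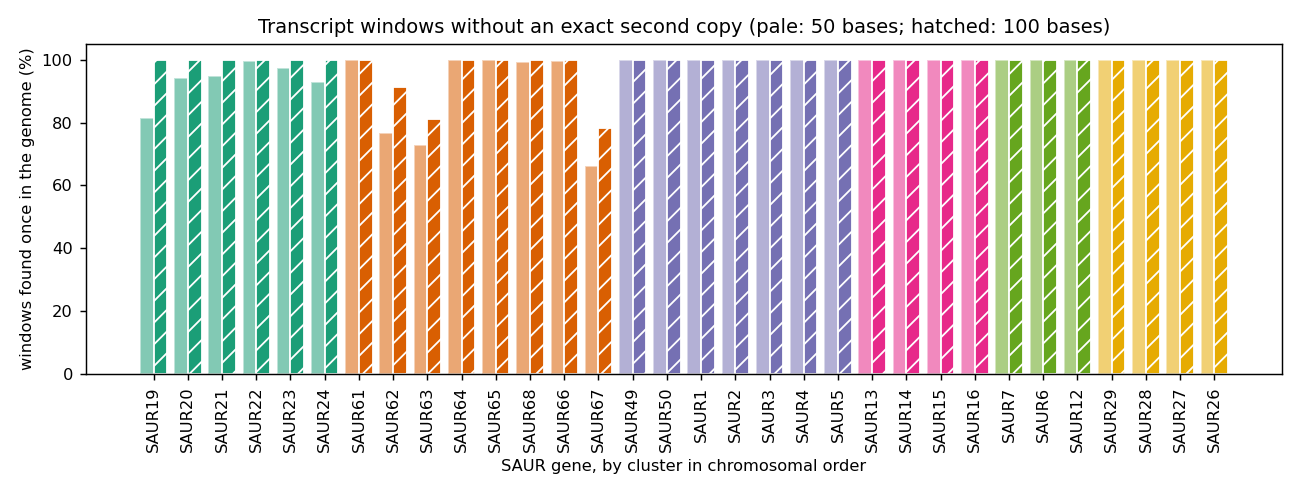
Percentage of 50-base (pale bars) and 100-base (hatched bars) windows of each annotated SAUR transcript that occur once in the TAIR10.1 genome, for the 32 genes by cluster. All 100-base windows are unique except in SAUR62, SAUR63 and SAUR67, while 50-base windows are also repeated in SAUR19 to SAUR24 and, in small number, in SAUR66 and SAUR68.

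Levels spanned about 2 orders of magnitude. SAUR14 was the highest, at 105.41 FPKM in WT and 114.26 in the column labelled bbx4-1, followed by SAUR6 at 84.71 and 100.27 FPKM and SAUR50 at 51.88 and 61.12 FPKM. In WT these ranked 1071st, 1309th and 2226th among the 33602 loci. These 3 genes, each in a different cluster, held 53.5% of the summed FPKM of the 32 genes in WT and 54.3% in the column labelled bbx4-1. At the other end, SAUR2 (AT4G34780) was listed at 0 in both columns. SAUR13 (AT4G38825) was listed at 0.75 and 0.82 FPKM, about 17 and 20 fragments, and 433 of its 485 bp overlap AT4G38820 on the opposite strand. SAUR2 and SAUR13 did not reach a mean FPKM of 1, and the 30 other genes are called measured here. Their median was 6.61 FPKM in WT and 7.09 in the column labelled bbx4-1.

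**Figure D2:**
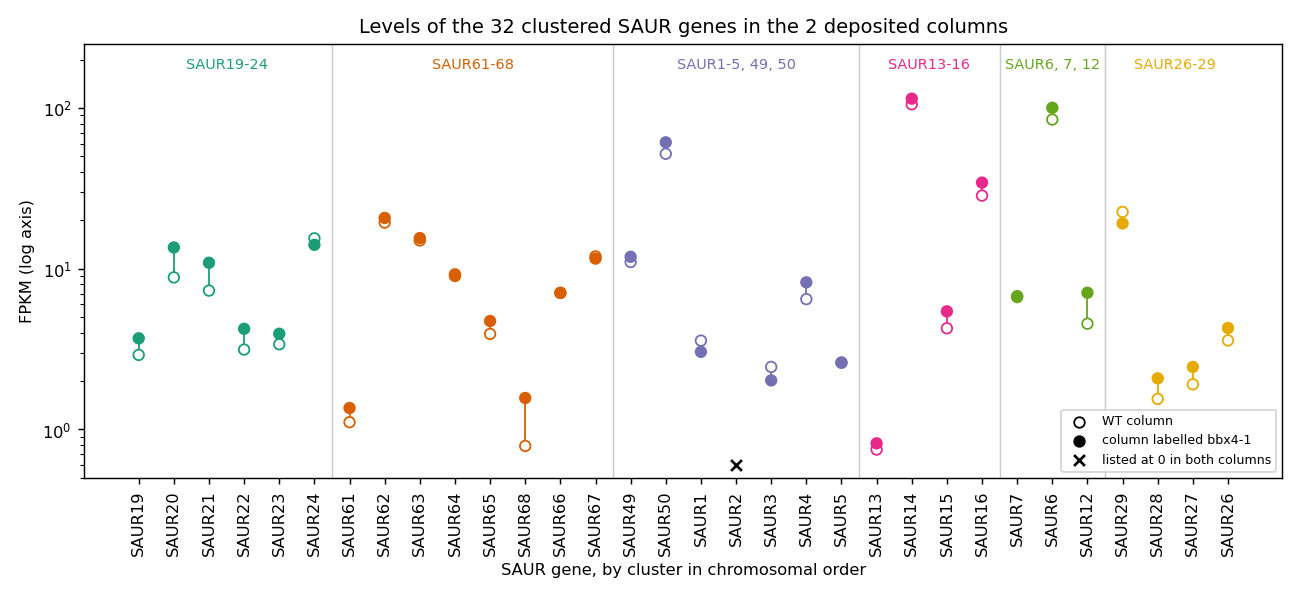
FPKM (log axis) of the 32 SAUR genes in the WT column (open circles) and in the column labelled bbx4-1 (filled circles), by cluster in chromosomal order. SAUR14, SAUR6 and SAUR50 stand highest, and SAUR2 is listed at 0 in both columns (cross).

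Summed over each cluster, 4 of the 6 clusters were higher in the column labelled bbx4-1 by more than their counting interval. Such intervals are narrow for sums, and most of the other sets described below also passed theirs. The log2 ratio of the sum was 0.035 (counting SE 0.0038) for 60 flanking loci and 0.054 (SE 0.016) for 6 auxin receptor genes. It was −0.043 (SE 0.013) for 11 transcription factor genes and 0.011 (SE 0.014) for 9 phosphatase genes. A sum does not depend on how fragments were divided among copies of equal length. Copies that share windows can differ in length, as SAUR63 (602 bp) and SAUR67 (817 bp) do. Fragments left out, or given to loci outside a cluster, would also change its sum. The sum of all 32 genes was 451.97 FPKM in WT and 507.6 in the column labelled bbx4-1 (ratio 1.12, 95% counting interval 1.10 to 1.15). The ratios of the clusters ran from 1.23 for SAUR19 to SAUR24 down to 0.944 for SAUR26 to SAUR29.

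The SAUR19 to SAUR24 sum was 41.03 FPKM in WT and 50.39 in the column labelled bbx4-1 (ratio 1.23, counting interval 1.14 to 1.32). The SAUR6, SAUR7 and SAUR12 sum was 96.01 and 114.02 FPKM (ratio 1.19, 1.15 to 1.23). The SAUR1 to SAUR5, SAUR49 and SAUR50 sum was 77.98 and 88.88 FPKM (ratio 1.14, 1.09 to 1.19). The intervals of these 3 clusters lay above the median of all loci, as did that of SAUR13 to SAUR16, at 138.92 and 154.85 FPKM (ratio 1.11, 1.07 to 1.16). The SAUR61 to SAUR68 sum was 68.42 and 71.52 FPKM (ratio 1.05, 0.991 to 1.10). The SAUR26 to SAUR29 sum, 29.61 and 27.94 FPKM, was the only one below 1 as a ratio, at 0.944 (0.866 to 1.03), and both of these intervals held 1. Of the 15 pairs of clusters, 10 had log2 ratios of their sums that differed by more than the counting interval of the difference. The widest gap was 0.38 (counting interval 0.22 to 0.54), between SAUR19 to SAUR24 and SAUR26 to SAUR29. No such share was computed for pairs of other gene sets. Whether these gaps exceed the variation between seedlings was not tested.

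**Figure D3:**
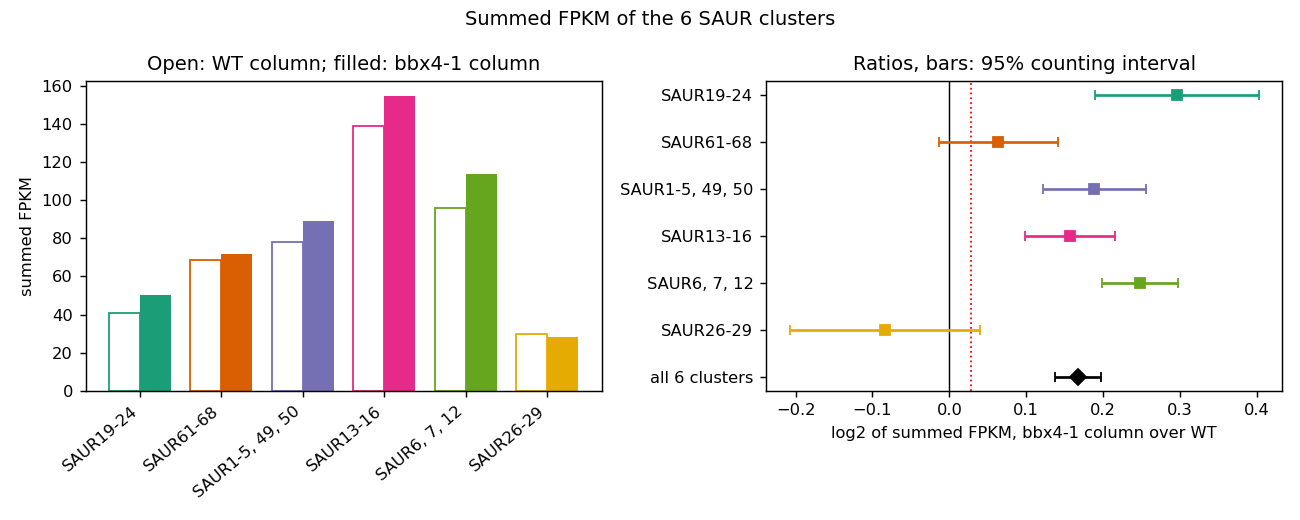
Left, summed FPKM of each SAUR cluster in the WT column (open bars) and the column labelled bbx4-1 (filled bars). Right, log2 of the ratio of those sums with its 95% counting interval (the red dotted line marks the median log2 difference of all loci, 0.028), with SAUR61 to SAUR68 and SAUR26 to SAUR29 reaching 0.

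Gene by gene, 23 of the 30 measured genes had a log2 difference above 0 (76.7%), against 59.1% of the 18931 loci at that level. Their median log2 difference was 0.19, with a range from −0.23 to 0.57. None differed 2-fold, and over all loci 0.106% were at least 2-fold higher and 0.0423% at least 2-fold lower. At least 1.2-fold higher were 8 of the 30, where 5.14% of all loci passed that threshold, and none was at least 1.2-fold lower, where 4.1% of all loci did. The 8 were SAUR20, SAUR21, SAUR22, SAUR68, SAUR4, SAUR15, SAUR12 and SAUR28, with at least 1 in every cluster. SAUR28, the only one from SAUR26 to SAUR29, rested on about 44 and 61 fragments. Its counting interval, −0.085 to 0.63, held 0. SAUR68, the only one from SAUR61 to SAUR68, was at 0.79 FPKM in WT and 1.57 in the column labelled bbx4-1. It reached a mean FPKM of 1 only through the latter column, so its place in the counts of this paragraph supports nothing. SAUR19 and SAUR16 fell just short, at log2 differences of 0.26 each. Higher by more than the counting interval were 11 of the 30, against 24.1% of all loci, and 1 was lower by that margin, SAUR29, against 12.8% of all loci. Low values scatter more, and of the loci averaging 1 to 5 FPKM 7.44% were at least 1.2-fold higher and 6.02% lower, where 4 of 13 measured SAUR genes were higher and none lower. Of the loci averaging 5 FPKM or more, 4.19% were higher and 3.31% lower, where 4 of 17 SAUR genes were higher and none lower. SAUR12, among those 4, was at 4.55 FPKM in WT and reached a mean of 5 only through the column labelled bbx4-1 (7.09 FPKM). The median of these 17 genes was 0.099 with 12 above 0, beside a median of 0.034 and 62.2% above 0 over the 13395 loci at that level.

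**Figure D4:**
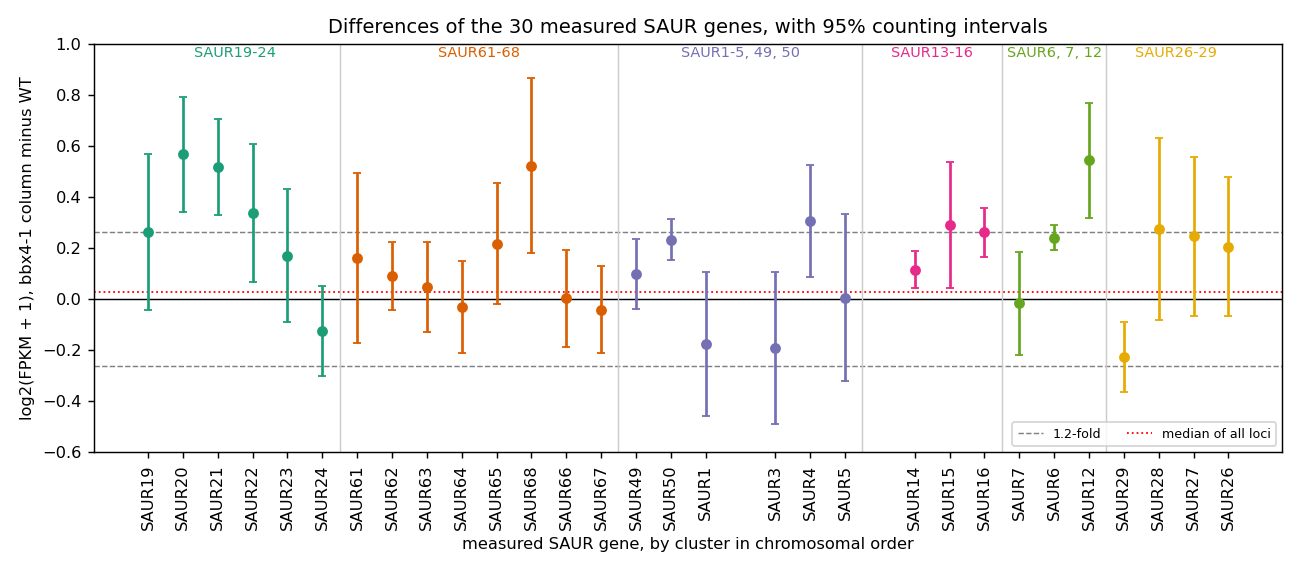
Log2 difference (column labelled bbx4-1 minus WT, on log2(FPKM + 1)) of the 30 measured SAUR genes with 95% counting intervals, by cluster. Dashed lines mark 1.2-fold and the red dotted line the median of all loci, and SAUR29 is the only gene whose interval lies below 0.

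SAUR19 to SAUR24 are the best studied cluster, and stabilised SAUR19 protein enlarges hypocotyl cells through the phosphatase and proton pump pathway. SAUR20 (AT5G18020) was at 8.83 FPKM in WT and 13.56 in the column labelled bbx4-1 (log2 difference 0.57, counting SE 0.12). SAUR21 (AT5G18030) was at 7.31 and 10.89 FPKM (0.52, SE 0.096), and SAUR22 (AT5G18050) at 3.14 and 4.23 FPKM (0.34, SE 0.14). These 3 genes lie next to each other among the SAUR genes of the cluster and were the ones past 1.2-fold there. SAUR19 (AT5G18010) was at 2.91 and 3.69 FPKM and SAUR23 (AT5G18060) at 3.39 and 3.94 FPKM, both higher by less than their counting intervals. SAUR24 (AT5G18080), the most abundant copy in both columns, was at 15.45 and 14.08 FPKM (−0.13, SE 0.090), and its counting interval, −0.30 to 0.051, held 0. Its share of the cluster's FPKM was 37.7% in WT and 27.9% in the column labelled bbx4-1, while that of SAUR20 was 21.5 and 26.9%. Without SAUR24 the log2 ratio of the sum was 0.51 in place of 0.30.

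SAUR20 and SAUR24 had the highest and the lowest log2 difference of this cluster, and the 250 bases before the annotated start of each gene are printed here from TAIR10.1. The annotated transcript of SAUR20 (495 bp) is shorter than its gene (positions 5966183 to 5966785), so its stretch may not end at the transcript start. Capitals mark the auxin response element TGTCTC on either strand, the letters known to be bound by auxin response factors.
SAUR20 (chr5:5966786-5967035, reverse strand): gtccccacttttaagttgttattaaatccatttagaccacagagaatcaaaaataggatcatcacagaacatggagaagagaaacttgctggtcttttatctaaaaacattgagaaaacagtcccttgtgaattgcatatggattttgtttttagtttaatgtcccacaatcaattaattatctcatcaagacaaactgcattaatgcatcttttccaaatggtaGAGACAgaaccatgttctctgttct
SAUR24 (chr5:5983433-5983682, forward strand): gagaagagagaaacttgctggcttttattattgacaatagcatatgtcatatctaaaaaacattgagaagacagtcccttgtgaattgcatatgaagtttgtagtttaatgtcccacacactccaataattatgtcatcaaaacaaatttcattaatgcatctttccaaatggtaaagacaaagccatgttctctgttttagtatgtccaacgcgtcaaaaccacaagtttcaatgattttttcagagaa
SAUR20 held the element once in this stretch, on the opposite strand (GAGACA), and SAUR24 did not hold these letters. Over the 32 genes, TGTCTC on either strand occurred in 7 of the 250-base stretches (21.9%), those of SAUR20, SAUR22, SAUR62, SAUR66, SAUR67, SAUR15 and SAUR7, against 10.9% of 27443 nuclear protein-coding genes. With 500 bases, 8 of the 32 genes and 21.3% of all genes held it. The stretches of SAUR7 lie inside the annotated transcript of SAUR6, so its matches are not in sequence between genes. TGTCGG, a variant that these factors bind tightly, occurred in 2 of the 250-base stretches (SAUR63 and SAUR28), against 4.16% of all genes. With 500 bases it occurred in 4 (12.5%), those of SAUR24, SAUR63, SAUR28 and SAUR27, against 7.69% of all genes. CGTGTG, part of the brassinosteroid response element, occurred in none of the 250-base stretches, against 5.37% of all genes. It occurred in 2 of the 500-base stretches (SAUR20 and SAUR49), against 9.22%. The G-box CACGTG, which PIFs and HY5 bind, occurred in none of the 32 even within 500 bases, against 9.35% of all genes. Each motif was counted on its own, and matches of different motifs can overlap, as CACGTG and CGTGTG do where they share CGTG. A match describes the reference sequence only. Of the genes with TGTCTC in 250 bases, SAUR20 had a log2 difference of 0.57, SAUR22 of 0.34 and SAUR15 of 0.29. SAUR62 was at 0.091, SAUR66 at 0.0018, SAUR7 at −0.017 and SAUR67 at −0.042. The counting intervals of SAUR62, SAUR66, SAUR7 and SAUR67 held 0. A link between motif and difference was not tested.

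SAUR6, SAUR7 and SAUR12 showed 3 different patterns. SAUR6 (AT2G21210), the main transcript of the cluster with 88.2% of its FPKM in WT, was at 84.71 FPKM in WT and 100.27 in the column labelled bbx4-1 (0.24, SE 0.025). It had the largest number of fragments of the 32 genes, about 5710 and 7004, and the narrowest counting interval. SAUR12 (AT2G21220) was at 4.55 and 7.09 FPKM (0.54, SE 0.11), and SAUR7 (AT2G21200) at 6.75 and 6.66 FPKM (−0.017, SE 0.10). The annotated transcripts of SAUR6 and SAUR7 overlap by 176 bp on the same strand, so fragments from that stretch belong to either.

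SAUR16 and SAUR50, from the 2 chromosome 4 clusters, are known to promote the opening of cotyledons in light. SAUR16 (AT4G38860) was at 28.5 FPKM in WT and 34.34 in the column labelled bbx4-1 (0.26, SE 0.049). SAUR50 (AT4G34760) was at 51.88 and 61.12 FPKM (0.23, SE 0.041). Both were higher by more than counting error and within 1.2-fold on this scale. SAUR14 (AT4G38840) was at 105.41 and 114.26 FPKM (0.12, SE 0.036). SAUR15 (AT4G38850), known as SAUR-AC1 and a long-used marker of rapid auxin induction, was at 4.26 and 5.43 FPKM (0.29, SE 0.13). Without SAUR14 the log2 ratio of the SAUR13 to SAUR16 sum was 0.28 in place of 0.16.

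In the cluster of SAUR50, the less abundant measured genes had log2 differences above and below 0. SAUR4 (AT4G34800) was at 6.47 FPKM in WT and 8.23 in the column labelled bbx4-1 (0.31, SE 0.11), and SAUR49 (AT4G34750) at 11.01 and 11.86 FPKM (0.099, SE 0.070). SAUR1 (AT4G34770) was at 3.57 and 3.04 FPKM (−0.18, SE 0.14), SAUR3 (AT4G34790) at 2.45 and 2.02 FPKM (−0.19, SE 0.15) and SAUR5 (AT4G34810) at 2.60 and 2.61 FPKM. The counting intervals of SAUR49, SAUR1, SAUR3 and SAUR5 held 0. SAUR50 held 66.5% of this cluster's FPKM in WT, and without it the log2 ratio of the sum was 0.089 in place of 0.19.

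SAUR61 to SAUR68 include SAUR63, which promotes elongation of hypocotyls and stamen filaments. SAUR62 (AT1G29430) was at 19.37 FPKM in WT and 20.7 in the column labelled bbx4-1 (0.091, SE 0.068), SAUR63 (AT1G29440) at 14.99 and 15.51 FPKM (0.046, SE 0.090) and SAUR67 (AT1G29510) at 11.93 and 11.56 FPKM (−0.042, SE 0.087). These are the abundant copies and also the 3 genes with repeated 100-base windows, and SAUR75, with which SAUR62 shares windows, was at 0.10 and 0.13 FPKM. SAUR64 (AT1G29450) was at 9.23 and 9.01 FPKM, SAUR66 (AT1G29500) at 7.07 and 7.08 FPKM, SAUR65 (AT1G29460) at 3.93 and 4.73 FPKM and SAUR61 (AT1G29420) at 1.11 and 1.36 FPKM, and the counting intervals of all 4 held 0. SAUR68 (AT1G29490) was at 0.79 and 1.57 FPKM (0.52, SE 0.18), on about 25 and 52 fragments. SAUR68 reached a mean FPKM of 1 only through the column labelled bbx4-1, so its difference supports nothing. SAUR61, SAUR63 and SAUR64 overlap loci on the opposite strand, by 342 bp, over the whole 602 bp transcript and by 32 bp, and the use of strand in counting is not stated in the sources used here.

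SAUR26 to SAUR29, a subfamily known for its part in growth at warm temperature, divided between the most abundant copy and the rest. SAUR29 (AT3G03820) was at 22.57 FPKM in WT and 19.13 in the column labelled bbx4-1 (−0.23, SE 0.070). SAUR28 (AT3G03830) was at 1.55 and 2.08 FPKM (0.27, SE 0.18), SAUR27 (AT3G03840) at 1.91 and 2.45 FPKM (0.25, SE 0.16) and SAUR26 (AT3G03850) at 3.58 and 4.28 FPKM (0.21, SE 0.14). The counting intervals of the last 3 each held 0. SAUR29 held 76.2% of the cluster's FPKM in WT and 68.5% in the column labelled bbx4-1, and without it the log2 ratio of the sum was 0.32 in place of −0.084. In this cluster and in SAUR19 to SAUR24, the most abundant copy had a log2 difference below 0 and the others had values above 0, but the counting interval of SAUR24 held 0, as did those of 5 of the others.

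Loci beside the clusters had a lower median. The 60 loci that flank them, the 5 nearest on either side that are not SAUR genes and have a mean FPKM of at least 1, had a median log2 difference of 0.018, with 32 above 0, 27 below 0 and a range from −0.12 to 0.35. At least 1.2-fold higher were 3 of them and none was 1.2-fold lower, near the shares over all loci of 5.14% higher and 4.1% lower, and 59.1% of all loci were above 0. By cluster, the medians of the 10 flanking loci ran from 0.007 beside SAUR13 to SAUR16 to 0.087 beside SAUR6, SAUR7 and SAUR12. At a mean FPKM of at least 5, the highest were AT2G21180 at 0.35, AT4G38810, an EF-hand calcium-binding protein gene, at 0.33, and ASE2, a purine synthesis gene, at 0.23. The lowest there were AT1G29530 at −0.12, AT3G03880 at −0.11 and APRL7 at −0.10.

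Of the 47 SAUR genes that are not among the 32, SAUR73 lies inside the SAUR26 to SAUR29 span and the others lie outside the 6 clusters. The mean FPKM was at least 1 for 26 of them, and SAUR73 was not one of these. Of these, 16 were above 0 and 10 below, with a median log2 difference of 0.086, 8 at least 1.2-fold higher and 3 at least 1.2-fold lower, where 5.14% and 4.1% of all loci passed these thresholds, or 7.44% and 6.02% of those averaging 1 to 5 FPKM. Their sum was 296.88 FPKM in WT and 270.24 in the column labelled bbx4-1 (log2 ratio −0.14, counting interval −0.17 to −0.10). That sign rested on SAUR78, at 165.91 and 130.51 FPKM (log2 difference −0.34), which alone exceeded every clustered gene. Without it the log2 ratio was 0.093 (0.041 to 0.15). At a mean FPKM of at least 5, the lowest after SAUR57, at 10.82 and 5.35 FPKM (−0.90), and SAUR78 was SAUR72 at −0.20. SAUR72, at 5.85 and 4.96 FPKM, reached that mean only through WT, and its counting interval, −0.41 to 0.0093, held 0. The highest at that mean were SAUR32 at 0.42, SAUR37 at 0.41 and SAUR31 at 0.11. Of the 9 genes at that level, 4 were above 0 and 5 below. The difference between clustered and other SAUR genes was not tested.

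**Figure D5:**
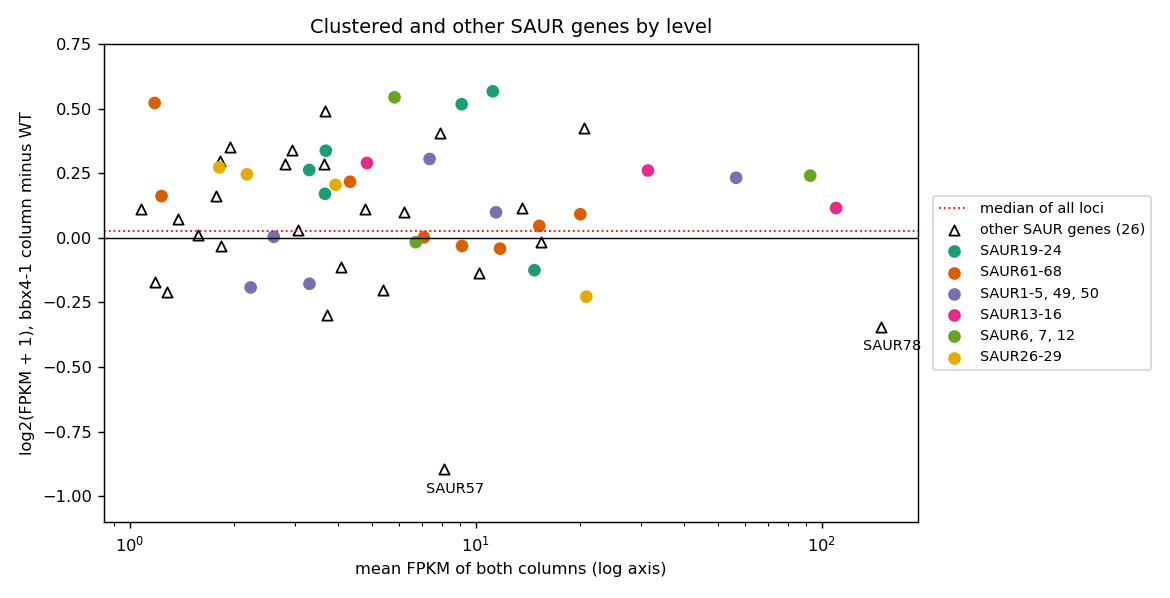
Log2 difference (column labelled bbx4-1 minus WT, on log2(FPKM + 1)) against the mean FPKM of both columns (log axis) for the 30 measured clustered SAUR genes (coloured circles) and 26 SAUR genes elsewhere (open triangles). No clustered gene lies below −0.23, whereas SAUR78 and SAUR57 are at −0.34 and −0.90.

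For the proteins that SAURs act on, the number of genes past 1.2-fold was small, as it was over all loci (5.14% higher and 4.1% lower). Of the 11 proton ATPase genes, 7 were measured, 2 above and 5 below 0, with a median of −0.053 and none past 1.2-fold. The 2 main pumps of seedlings were AHA1 at 173.96 FPKM in WT and 183.41 in the column labelled bbx4-1 (0.076) and AHA2 at 198.0 and 183.96 FPKM (−0.11). AHA3 was at −0.053 and AHA11 at 0.056. The 9 type 2C phosphatases of clade D had a median of −0.022, and 1 was past 1.2-fold, AT4G33920, at 20.37 and 16.05 FPKM (−0.33). AT3G55050 was highest at 0.14, followed by AT3G17090 at 0.13 and AT3G51370 at 0.099, with AT5G06750 at −0.099 and AT4G38520 at −0.059.

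Of the upstream regulators, PIF5 was the only gene past 1.2-fold, a count that is near the share over all loci. The 6 auxin receptor genes lay between −0.11 for AFB4 and 0.13 for AFB5, with TIR1 at 0.12, AFB3 at 0.036, AFB2 at −0.024 and AFB1 at −0.053. Among 11 transcription factor genes known to act on SAUR promoters or on hypocotyl growth (ARF6, ARF7, ARF8, BZR1, BES1, 5 PIFs and HY5), 6 were above 0 and 5 below, with a median of 0.044. The lowest were PIF5, at 34.83 FPKM in WT and 28.38 in the column labelled bbx4-1 (−0.29), PIF1 at −0.15 and PIF4 at −0.077. The highest were PIF3 at 0.13, PIF7 at 0.10 and HY5 at 0.094.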

How the data were processed

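Messenger RNA was measured in 6 samples of 2 genotypes. The deposited FPKM values are 1 column per genotype; per the design text the authors combined the 3 replicates, and whether before or after sequencing is not stated. Per the submitters' processing notes, HISAT2 2.1.0, edgeR 3.0.8 and the build TAIR10 were used; their roles, the counting tool, annotation, strand use and filters are not stated in the sources used here. All 32 members and the comparison lists were chosen with earlier results of these data known, and support nothing as independent evidence.

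Values were used as deposited, as log2(FPKM + 1), with no test. Fragments per gene were approximated as FPKM times annotated exon length, divided by what 1 fragment is worth, the median product over 20 (WT) and 18 (bbx4-1) transfer RNA genes of at most 75 bp with the lowest values. From them came the counting SE, and intervals of 1.96 SE, which cover counting error only. PCR copies could not be told apart, and gene lengths were taken from the annotation, not from the authors, so both are approximate. The functions were tested on simulated data. Names, lengths and sequences came from RefSeq TAIR10.1, whose nuclear chromosomes carry the TAIR10 sequence; 32835 loci matched by identifier. AT5G01830, which carries a SAUR symbol but is annotated as an ARM repeat protein, was left out of the other SAUR genes. All members are named; in each list, the 3 highest and 3 lowest log2 differences at a mean FPKM of at least 5 are. Alternatives covered the pseudocount, the filter, scaling and the way clusters were summed. Python 3.11.15, pandas 2.3.3, NumPy 2.4.6 and Biopython 1.88 were used.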

Additional observations from a re-analysis of the deposited data

How the results depend on the processing

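The log2 ratios of the cluster sums kept their direction and stayed within their counting intervals under both scalings and with sums weighted by length. Without each cluster's most abundant gene they moved to 0.51 for SAUR19 to SAUR24, 0.089 for SAUR1 to SAUR5 with SAUR49 and SAUR50, 0.28 for SAUR13 to SAUR16 and 0.32 for SAUR26 to SAUR29, and with the median of member differences in place of the sum to 0.051, 0.26 and 0.23 for the last 3. The sign for SAUR26 to SAUR29 (−0.084) thus rests on SAUR29. The median over measured genes ran from 0.099 (mean FPKM of at least 5) to 0.24 (pseudocount 0.1). Genes at least 1.2-fold higher numbered 8 (5.14% of all loci), 12 at a pseudocount of 0.1 (7.47%) and 3 at a pseudocount of 5 (1.99%). They numbered 6 when centred on the median of all loci (4.03%) and 6 with trimmed mean scaling (3.84%). At a mean FPKM of at least 5 they were 4 of 17 (4.19%), with SAUR12 reaching that mean only through the column labelled bbx4-1. SAUR68, among the 8, likewise reached a mean FPKM of 1 only through that column. The count of 0 at least 1.2-fold lower (4.1% of all loci) became 1 at a pseudocount of 0.1 (6.22%) and 1 with trimmed mean scaling (5.38%). Scaling turned SAUR66 and SAUR5, both near 0, below 0. No paired analysis was possible because the tables hold no column per replicate, and leaving out a replicate was not possible for the same reason. Depth limits the genes under 100 fragments in WT, 7 of the 30.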

Other observations

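Other genes lie between the clustered SAUR genes. Within SAUR19 to SAUR24, AT5G18040, also known as HTT2, was at 3.30 FPKM in WT and 3.85 in the column labelled bbx4-1 (log2 difference 0.17), and DRT101, a phosphoglucosamine mutase-like gene, at 4.35 and 4.96 FPKM (0.16). Between SAUR65 and SAUR68, the methyltransferase gene AT1G29470 was at 91.28 and 94.12 FPKM (0.044). Between SAUR13 and SAUR14, the receptor kinase gene CRK26 was listed at 0.73 and 0.45 FPKM. AT3G03847 (SAUR73), a SAUR gene inside the SAUR26 to SAUR29 interval that is not among the 32, was listed at 0.05 FPKM in WT and at 0 in the column labelled bbx4-1. AT2G21195, which overlaps SAUR7 by 4 bp on the opposite strand, was at 7.68 and 9.51 FPKM (0.28, SE 0.11). It was not counted among the flanking loci. The loci named in this paragraph were chosen among those inside or overlapping the clusters after their values were seen.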
